A study of Homo sapiens with 2 samples.

Results

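Some protein-coding genes lie wholly inside another protein-coding gene that is read from the opposite DNA strand. Their counts were examined in U2AF2 eCLIP libraries from HEL, a human erythroleukemia cell line. A gene was taken as nested when it was annotated as protein-coding in GENCODE 29, lay off chromosome Y and had its whole span within exactly 1 opposite-strand protein-coding gene, here called the outer gene. Of 19906 protein-coding genes, 607 met this rule, in 495 outer genes. In 212 of them the exons shared at least 1 base with exons of the outer gene, and these are called exon-touching. The other 395 had exons over introns of the outer gene alone, and these are called intron-only. A row in the count table was found for 606 nested genes, and GCSAML-AS1, an intron-only gene, is not analysed here.

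The assay, eCLIP, crosslinks RNA to bound proteins in living cells and sequences the fragments that an antibody pulls down. The samples were 2 biological replicates of 1 group of HEL cells with no treatment named, precipitated for U2AF2. The source and description fields name HEL, while the cell line field reads U2AF2. Input libraries are not analysed here, and levels are therefore not corrected for RNA abundance. Gene counts summed to 995428 in replicate 1 and 1350116 in replicate 2. A gene with 0 counts could have had up to 3.01 and 2.22 CPM (counts per 1e+06 gene counts), from 3 counts of each total, a limit for counting error alone. Of 12 erythroid marker genes, 2 reached 10 counts in both libraries, as did 2 of 7 megakaryocyte markers and 0 of 4 markers of other blood cells. The 4 of 19 erythroid and megakaryocyte markers (21.1%) were close to the 24.9% of all protein-coding genes. The summed counts were 104 and 144 for the erythroid list, 371 and 487 for the megakaryocyte list and 7 and 15 for the other list, with PF4 and CD14 at 0. These counts do not test the cell type, since the strand on which reads were counted is not given in the sources used here. For the same reason it is uncertain for each nested gene whether a counted read came from its own RNA or from the RNA of the outer gene.

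U2AF2, a splicing factor that works as a pair with U2AF1, binds the polypyrimidine tract, a stretch rich in C and U that lies before the AG at the end of an intron, and helps to recruit the U2 small nuclear ribonucleoprotein to the branch point. A gene inside an intron of another gene has its own promoter and is usually transcribed on its own, while the outer gene's precursor RNA runs through the same DNA in the opposite direction until its intron is removed. Where exons of the 2 genes touch, one DNA segment can hold a splice site of the outer gene and an exon of the nested gene.

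Outer 3' splice sites that lie under nested exons show this arrangement. Exons of 117 of the 212 exon-touching genes reached the last 50 intronic bases, or the first exon base, at an annotated 3' splice site of the outer gene. For 105 genes a window of 25 intronic and 5 exonic bases lay whole within a nested exon, giving 165 splice sites, and all 165 had AG at the intron end when read on the outer strand. Pyrimidines made up a median of 69.6% of the 23 bases before the AG (quartiles 60.9 and 78.3%). The longest unbroken pyrimidine run had a median of 7 bases, with a range of 2 to 22. The windows below belong to the 8 genes with the most counts per kb that hold a whole window. One site is given for each gene, the one with the longest run, and 3 for C17orf107, which covered the most sites. They are on the outer strand, 5' to 3', from GENCODE 29 transcript sequences (GRCh38), and capitals mark the longest pyrimidine run.
SH3D21 under EVA1B, chr1:36323915-36323944, plus strand: tgataccattaTCCCCacttcgcagatcaa
SERF2 under SERINC4, chr15:43794349-43794378, plus strand: gCCTCTTTTCCTCattcttcctcagtttgt
CHRNE under C17orf107, chr17:4902759-4902788, minus strand: CCCTTCCTTCTTgaccccatcgcaggcagg
CHRNE under C17orf107, chr17:4900903-4900932, minus strand: ccgctctcactggCTCTCCCTCCagccggc
CHRNE under C17orf107, chr17:4902083-4902112, minus strand: aagctcggTTTCCCCgagcccacagtattg
CFL1 under SNX32, chr11:65856238-65856267, minus strand: gacgtatacgtggcatgTCTCCTaggcctc
GIGYF2 under KCNJ13, chr2:232770999-232771028, plus strand: aaccaattgtgagttgtgTCTCCagggaga
ZSCAN32 under AC025283.2, chr16:3390129-3390158, minus strand: agcagcagCTCCagtgttgttacagggacc
WDR83 under WDR83OS, chr19:12668483-12668512, plus strand: tactcaagagtcacttgTTCTgtagggcaa
LBHD1 under CSKMT, chr11:62667743-62667772, minus strand: tgTCCCCTCTCTTCCTCCatcccaggctgg
The runs in these 10 windows ranged from 4 bases in WDR83 and ZSCAN32 to 16 in LBHD1, so that sites with short and with long runs both lay under nested genes with high counts.

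The first comparison was the level of the 2 classes, as counts over both libraries per kb of merged exons. Exon-touching genes had a median of 22.6 counts per kb and intron-only genes a median of 3.97. With each library scaled to the total of both, the medians were 22.6 in replicate 1 and 21.8 in replicate 2 for exon-touching genes and 4.02 and 3.80 for intron-only genes. The SD over the 2 libraries was 0.532 for the first class and 0.158 for the second, so the gap between the classes was larger than the spread between replicates. All 19772 protein-coding genes with a row had a median of 0.918 counts per kb, and the 480 outer genes with a row 1.66. The classes overlapped widely, from 0 to 784 counts per kb for exon-touching and from 0 to 449 for intron-only genes.

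A gene was called detected when both libraries gave it 10 counts or more. Of 212 exon-touching genes 128 were detected (60.4%), and of 394 intron-only genes 161 (40.9%), against 24.9% of all protein-coding genes. With a minimum of 3 counts the shares were 74.1% and 54.3%, against 40.0% of all protein-coding genes, and with 50 counts they were 37.3% and 17.3%, against 10.4%. At least 100 counts per kb were held by 41 exon-touching genes (19.3%) and 31 intron-only genes (7.87%), against 3.15% of all protein-coding genes. Neither library held a count for 13 exon-touching genes (6.13%) and 83 intron-only genes (21.1%), against 20.0% of all protein-coding genes. The share of intron-only genes without a count was thus close to that of all protein-coding genes, while their detected share was higher. No test was run on these shares, since genes are not replicates. Together the nested genes took 2.93% ± 0.0267 (SD, n = 2) of all gene counts, of which exon-touching genes took 1.57% ± 0.0199 and intron-only genes 1.36% ± 0.00690.

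**Figure D1:**
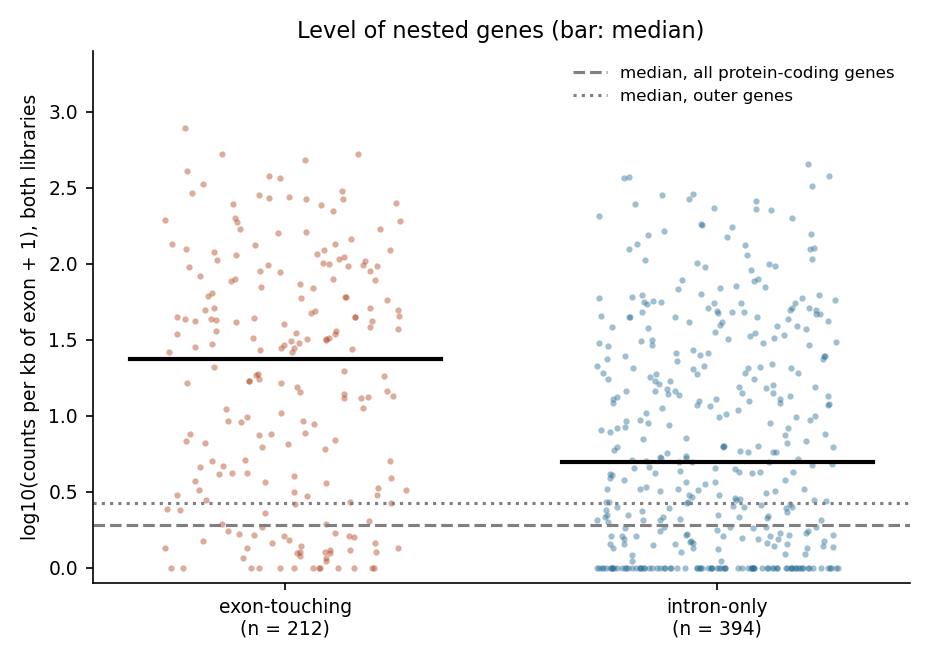
Counts per kb of merged exons over both libraries, on a log10(value + 1) axis, for 212 exon-touching and 394 intron-only nested genes; each point is 1 gene, bars are class medians, and the grey lines are the medians of all protein-coding genes (dashed) and of outer genes (dotted). The medians were 22.6 and 3.97 counts per kb, and both classes reached down to 0.

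Other arrangements of genes had other levels. The 4004 protein-coding genes that an opposite-strand protein-coding gene overlapped without containing them had a median of 7.21 counts per kb, and 55.1% were detected. Genes nested in exactly 1 protein-coding gene of the same strand, with none on the opposite strand, had medians of 0.119 counts per kb when their exons touched outer exons (213 genes) and 0.192 when they lay in introns alone (99 genes). Of those 99 genes, 3 were detected. The 13241 genes whose span no other protein-coding gene entered had a median of 0.679 counts per kb. Nested genes were short, with a median of 2752 exonic bases against 4237 for all protein-coding genes, and 15.5% had a single exon block against 5.62%.

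Among exon-touching genes EVA1B, in SH3D21, led with 383 counts in replicate 1 and 567 in replicate 2, or 784 counts per kb. SERINC4, a member of the serine incorporator family in SERF2, held 689 and 877 counts (526 counts per kb). C17orf107 (chromosome 17, 4899418 to 4902932, plus strand, GRCh38) held 750 and 1030 counts (522 counts per kb) and lies in CHRNE, the gene of the epsilon subunit of the muscle acetylcholine receptor. Its exons shared 1172 bases with CHRNE exons, 986 of them coding, and covered 9 CHRNE 3' splice site windows. SNX32, a sorting nexin gene in the cofilin gene CFL1, held 876 and 1027 counts (480 counts per kb), the most of any exon-touching gene at 820 ± 69.7 CPM (SD, n = 2), although 9.0% of its exon bases were CFL1 exon. In these 4 genes each count in replicate 2 was above that in replicate 1, as in the library totals.

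PGAM2, the muscle phosphoglycerate mutase gene of glycolysis, lay wholly within exons of DBNL and held 152 and 195 counts (405 counts per kb). MSMP lay wholly within exons of RGP1, with 100 and 121 counts (281 counts per kb). Both genes covered no outer 3' splice site window, and the bases they shared were not coding in any outer transcript. KCNJ13, a potassium channel gene in GIGYF2, held 460 and 619 counts (362 counts per kb) and covered 2 such windows. FAM151A in ACOT11 held 283 and 383 counts (332 counts per kb), AC025283.2 in ZSCAN32 363 and 505 (299), WDR83OS in WDR83 104 and 127 (293) and PNO1, a ribosome assembly factor gene in AC017083.3, 276 and 456 (274). With exons of protein_coding transcripts alone, EVA1B and SNX32 touched no outer exon. The genes with the highest levels thus included genes with and without an outer 3' splice site under their exons. The 10 exon-touching genes with the most counts held 32.6% ± 0.550 (SD, n = 2) of the counts of their class.

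The levels of exon-touching genes were then set against how much of the outer gene they touched. Genes with up to 10% outer exon among their exon bases had a median of 8.02 counts per kb (108 genes). The median was 42.3 from over 10% to 50% (80 genes), 73.3 above 50% but under 100% (12 genes) and 151 for the 12 genes wholly within outer exons. Across the 212 genes, counts per kb had a Spearman rho of 0.33 with this share, given as a description of genes that share libraries and in part outer genes. Both values are divided by exon bases, and with counts in place of counts per kb the rho was 0.22. Genes wholly within outer exons were not uniformly high. They ran from HEPN1 in HEPACAM with 0 counts and ZNF593 with 0 and 1 to PGAM2 with 405 counts per kb, and they were short, with a median of 1408.5 exonic bases. HEPN1 and ZNF593 are named here after their values were seen. Where shared bases included outer coding sequence the median was 57.8 counts per kb (66 genes), and it was 12.7 where they did not (146 genes).

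Because U2AF2 binds before 3' splice sites, genes that covered an outer window were compared with those that did not. Their medians were 26.5 counts per kb (117 genes) and 17.7 (95 genes), a difference of 8.76 with an SD of 2.31 over the libraries. The difference was 4.97 without replicate 2, 8.23 without replicate 1 and 1.49 per kb of gene span. Of the genes with and without a window, 59.8% and 61.1% were detected. The order depended on the number of windows. It was 9.81 counts per kb for 76 genes with 1 window, below the genes with none, 59.5 for 32 genes with 2 or 3 and 121 for 9 genes with 4 or more. Those 9 included C17orf107, AC025283.2, PAQR4 in the kinase gene PKMYT1 with 336 and 408 counts (250 counts per kb), and also FAM83G with 4 and 0 counts and CCDC43 with 1 and 0, of which PAQR4, FAM83G and CCDC43 were chosen after their values were seen.

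Genes with more windows also shared more bases with outer exons. Among genes with over 10% outer exon the medians were 35.0 counts per kb with no window (38 genes), 26.5 with 1 (33 genes) and 88.7 with 2 or more (33 genes). Among genes with 10% or less they were 13.5 (57 genes), 7.81 (43 genes) and 0.940 (8 genes). In both sets genes with 1 window lay below genes with none, and genes with 2 or more were highest in the first set and lowest in the second, which rests on 8 genes. For outer 5' splice sites, with windows of the same length, the medians were 17.2 counts per kb with a window (123 genes) and 26.9 without (89 genes). The gene counts do not say where in a nested gene its reads lay, so reads at the splice sites could not be told apart from reads elsewhere in its exons.

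**Figure D2:**
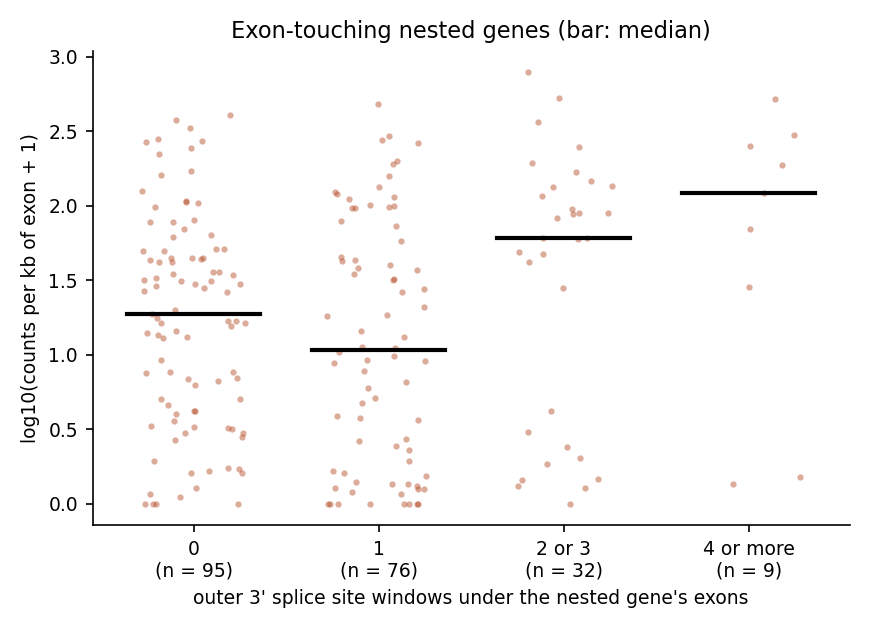
Counts per kb of exon, on a log10(value + 1) axis, of exon-touching nested genes grouped by the number of outer 3' splice site windows (last 50 intronic bases and first exon base) under their exons; each point is 1 gene and bars are medians. The medians were 17.7, 9.81, 59.5 and 121 counts per kb for 0, 1, 2 or 3, and 4 or more windows, and each of the 4 groups held genes below 1 count per kb.

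Among intron-only genes ANKRD61 led with 206 counts in replicate 1 and 359 in replicate 2 (449 counts per kb). It lies on chromosome 7 (6031376 to 6036386, plus strand, GRCh38) in EIF2AK1, the gene of the heme-regulated kinase that restrains translation in erythroid cells. P2RY14, a receptor gene for UDP-sugars in MED12L, held 425 and 638 counts (378 counts per kb). The water channel gene AQP11, in CLNS1A, held 275 and 396 counts (280 counts per kb), and AVPR2, the vasopressin receptor gene of the kidney, held 239 and 317 counts (247 counts per kb). AQP11 and AVPR2 are best known from tissues other than blood.

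The largest counts of the intron-only class were those of GPSM2, a gene of mitotic spindle orientation, with 866 and 1192 counts, or 877 ± 24.9 CPM (SD, n = 2), and of C19orf44 with 736 and 883 counts (696 ± 47.9 CPM). The exons of GPSM2 also touched exons of the opposite-strand gene CLCC1, those of C19orf44 touched CHERP, and those of ATF5, a transcription factor gene with 366 and 476 counts, touched IL4I1 and NUP62. In this class 58 genes had exons of such a further opposite-strand gene over their own. Their median was 14.0 counts per kb, against 3.18 for the 336 genes without. ZNF671, a zinc finger gene with 350 and 460 counts, had none. The outer genes of GPSM2, C19orf44, ATF5 and ZNF671 carry clone-based symbols. For 71 intron-only genes the outer gene had such a symbol, with a median of 6.63 counts per kb, against 3.46 for the 323 others.

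Gene structure and position also went with the level of intron-only genes. The 67 genes with a single exon block had a median of 0.581 counts per kb, and 31 of them held no count, while the 327 with 2 or more blocks had a median of 5.22 and 52 held no count. In the RNA sense of the outer gene, the distance from the nested gene to the next outer 3' splice site downstream was up to 1000 bases for 26 genes, with a median of 17.8 counts per kb. It was over 1000 and up to 10000 bases for 138 genes (median 7.04) and longer for 230 genes (median 2.30). Among genes with 2 or more exon blocks the medians were 10.7 counts per kb up to 10000 bases (139 genes) and 3.25 beyond (188 genes). Over the 394 genes the Spearman rho between counts per kb and this distance was -0.15, and P2RY14, among the highest, lay 58040 bases from the next site. Some single-exon genes have near-identical copies, whose reads can map to several places and may then be lost, which was not tested.

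Each nested gene was next set against its own outer gene. Both genes had a row in 589 pairs, and in 381 of them the 2 genes together reached 10 counts in both libraries. The nested gene had more counts per kb of exon than the outer gene in 236 of these pairs (61.9% ± 0.557, SD, n = 2), in 101 of 169 exon-touching and 135 of 212 intron-only pairs. It was more than 10 times above the outer gene in 152 pairs and more than 10 times below it in 67. Both genes were detected in 127 pairs, and in 42 pairs, 38 of them intron-only, the outer gene held none. As a description across pairs that share libraries and in part outer genes, the Spearman rho between the levels of the 2 genes was 0.12 over 207 exon-touching and 0.05 over 382 intron-only pairs.

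Single pairs show both orders. KCNJ13 held 362 counts per kb and GIGYF2 around it 0.298, from 0 and 4 counts. LPAR6, a lysophosphatidic acid receptor gene in an intron of the retinoblastoma gene RB1, held 265 and 309 counts (132 counts per kb), and RB1 held 1 and 6. On the other side RPL32, a ribosomal protein gene, held 1 and 0 counts, while CAND2 around it held 210 and 257. ATMIN held no count, and its outer gene AC092718.8 held 99 and 150. WDR83OS held 293 counts per kb and WDR83 650, from 678 and 857 counts, so here both genes of the pair were high. Reads that touch exons of 2 genes are normally set aside as ambiguous, in stranded counting only where both genes lie on the same strand. Reads tallied as ambiguous came to 1.79% of gene counts in replicate 1 and 1.77% in replicate 2. The strand setting behind this tally is not given.

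**Figure D3:**
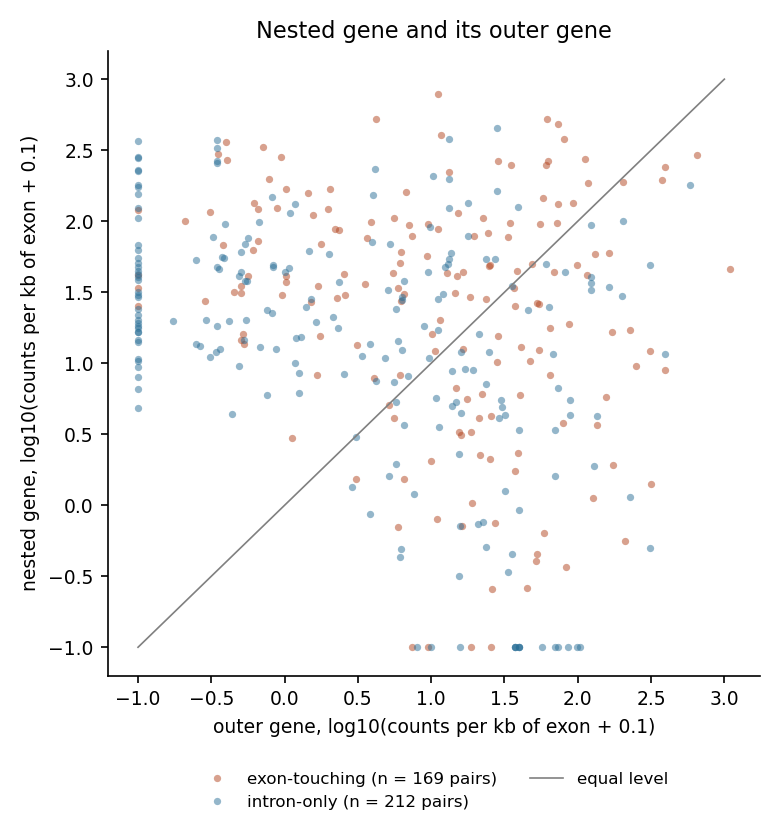
Counts per kb of exon of the outer gene (x axis) and of the nested gene (y axis), both over both libraries and as log10(value + 0.1), for 169 exon-touching and 212 intron-only pairs; each point is 1 pair and the line marks equal levels. Points above the line, 236 of 381, are pairs in which the nested gene was higher, and the column at the left edge holds outer genes with no count.

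Some outer genes held several nested genes, which then share a locus and are not independent. Of the 495 outer genes 429 held 1 nested gene with a row, 44 held 2 and 22 held 3 or more. MED12L, a Mediator subunit gene on chromosome 3, held P2RY14 and other G protein-coupled receptor genes. P2RY14 had 378 counts per kb, the platelet ADP receptor gene P2RY12 199 (158 and 212 counts), GPR171 124 (89 and 134 counts) and P2RY13 54.3 (57 and 93 counts), and MED12L itself 13.2. These 4 genes were all above their outer gene. CENPP, a centromere protein gene on chromosome 9, held ASPN, ECM2, OGN and OMD, all extracellular matrix genes, at 32.8, 40.5, 36.4 and 94.3 counts per kb, below the 124 of CENPP. NF1, the neurofibromin gene, held OMG, the oligodendrocyte myelin glycoprotein gene, with 100 and 134 counts (61.0 counts per kb), EVI2B with 37 and 53 (43.4), EVI2A with 25 and 39 (30.9) and AC134669.1 with 8 and 10 (14.5), all above the 0.405 of NF1.

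At 4 other loci with 5 or more nested genes, TSPEAR (8), MMP26 (7), TRIM5 (6) and RMI2 (5), no nested gene reached 10 counts in either library. They hold mostly keratin-associated protein genes, olfactory receptor genes and the protamine genes of sperm chromatin. KATNAL2 held 5 elongin A paralogs, of which ELOA2 had 6 and 4 counts and the other 4 had 0 or 1, while KATNAL2 held 82 and 108. At CENPP all nested genes were thus detected and at these 5 loci none, while NF1 had 3 of 4 and LIPA 1 of 4. The ELOA3 copies are near-identical, as are some keratin-associated protein genes, and their reads may be lost as multimapping, so these low counts are uncertain. That loss was not tested. EVI2A, AC134669.1, GPR171, P2RY13, ELOA2 and the genes in CENPP were named for their outer gene.

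Gene families were then compared by symbol. Of 46 nested G protein-coupled receptor genes 16 were detected, against 9.63% of the whole family, and 16 held no count, with a median of 2.43 counts per kb against 0.214 for all 623 such genes in the table. Besides the MED12L genes and LPAR6 they included HTR2B, a serotonin receptor gene in PSMD1, with 137 and 216 counts, named after its value was seen. Of 17 nested zinc finger genes 10 were detected, against 151 of all 605, led by ZNF552 in ZNF586 with 363 and 448 counts, and their median was 28.8 counts per kb against 0.747. Of the 7 genes of junction and adhesion families, 6 were detected, against 15.7% of all 134. CLDN2, a claudin gene, held no count. All 10 nested keratin-associated protein genes were undetected, as were all 94 genes of the family, and 9 of the 10 held no count.

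Of 6 nested genes on a list of developmental genes, mostly transcription factors, 4 were detected, against 15.4% of all 227. The list median was 14.7 counts per kb against 0.572. Among the 4 detected genes were MAB21L1 and MAB21L2, which are not established transcription factors. MAB21L2 in LRBA held 152 and 191 counts, SOX15 73 and 77, SOX10, a neural crest factor gene, 18 and 32 and MAB21L1 in NBEA 18 and 30. Of 7 cytokine genes 2 were detected, the interferon gene IFNK in MOB3B with 44 and 69 counts and IL18 with 10 and 18. All 128 cytokine genes had 15.6% detected, and the medians were 1.11 counts per kb for nested and 0.498 for all.

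Of 7 nested genes of mitochondrial proteins 5 were detected, among them MRPL2 with 48 and 57 counts, against 29.9% of all 221, with medians of 14.4 and 2.37 counts per kb. Of 4 ribosomal protein genes 1 was detected, RPL15 with 14 and 12 counts, a share close to the 27.5% of all 80, with medians of 3.14 and 1.88 counts per kb. Of 5 genes of RNA-binding and splicing proteins 2 were detected, DDX28 with 37 and 36 counts and the SR protein gene SRSF2 with 19 and 39, and DDX49 held none. Of all 224 genes of that list 65 were detected, and the medians were 7.66 counts per kb for nested and 1.72 for all. SRSF2 lay in AC005837.2 with exons of MFSD11 over its own.

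Of 5 solute carrier genes 2 were detected, against 26.7% of all 386, and the nested median of 1.24 counts per kb was close to the 1.11 of all. Of 9 TMEM genes 6 were detected, against 25.9% of all 251, with medians of 19.9 and 1.20 counts per kb. Of 39 genes named by open reading frame or sequence family 14 were detected, against 17.9% of all 1071, with medians of 2.23 and 0.272 counts per kb. None of the 19 erythroid and megakaryocyte markers was nested. Of 10 nested genes known from textbooks 7 were detected, against 24.9% of all protein-coding genes. They included TIMP3, a metalloproteinase inhibitor gene in SYN3, with 111 and 138 counts, while F8A1 in the coagulation factor VIII gene F8, which has copies elsewhere on the chromosome, held none. The median of the 10 was 37.2 counts per kb, against 0.918 for all protein-coding genes. OMG, EVI2A and EVI2B of this list share the NF1 locus and are not independent. These families held 169 of the 606 genes, and the lists were not tested.

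Long nested genes without a count in either library were the other end of the range. Among exon-touching genes they were LRRC37A, the mucin gene MUC15, AMIGO3, TFPI2 and CDSN, with 2552 to 6506 exonic bases. Among intron-only genes they were ATMIN, the gonadotropin receptor gene LHCGR, OR51A4, NIPAL4 and the cell cycle inhibitor gene CDKN2B, with 4058 to 6262 exonic bases. AMIGO3 covered 1 RNF123 3' splice site window, and RNF123 held 81 and 110 counts. CDSN shared 93.8% of its exon bases with PSORS1C1, which itself held 1 and 3 counts. An outer splice site or a large exon overlap was therefore also found at genes without a count.

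Agreement of the replicates was the last comparison. The counts of the 2 libraries had a Spearman rho of 0.98 over 212 exon-touching and 0.95 over 394 intron-only genes. An exact two-sided binomial test at scaled library sizes, adjusted by Benjamini-Hochberg over the 8983 genes detected in the whole table, called 0 of 289 nested genes, against 0.501% of all genes tested (0.111% higher in replicate 1 and 0.390% higher in replicate 2). Of the 289, 21 had an unadjusted exact p below 0.05, against 8.56% of all genes tested. The log2 ratio of replicate 2 to replicate 1 had a median of 0.04 and ran from -0.91 to 1.18. Its upper end was ABHD12B in PYGL, with 12 and 37 counts (adjusted exact p = 0.337). The lowest adjusted exact p, 0.0958, was that of LRRC4, a leucine-rich repeat gene in SND1, with 161 and 145 counts and a log2 ratio of -0.55.

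LRRTM1, an intron-only gene of synaptic adhesion in CTNNA2 on chromosome 2, held 2 counts in replicate 1 and 113 in replicate 2 and so fell outside the minimum of the test. With every gene that held a count tested, it was the single nested gene called, with a log2 ratio of 5.10 and an adjusted exact p of 2.74e-21. Its level of 22.8 counts per kb rests on replicate 2. The choice of LRRTM1, LRRC4 and ABHD12B followed from their values. Both libraries belong to 1 group, so the test speaks of these libraries and no condition.

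**Figure D4:**
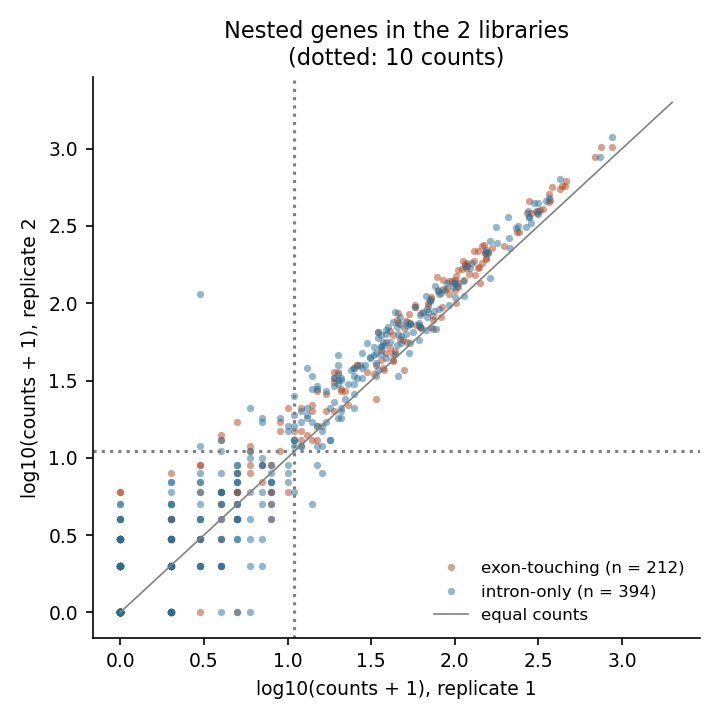
Counts of each nested gene in replicate 1 (x axis) and replicate 2 (y axis), both as log10(counts + 1); points are genes, the solid line marks equal counts and dotted lines mark 10 counts. Most points with more than 10 counts lie just above the line, as the larger library gives, and the point far above it, with 2 and 113 counts, is LRRTM1.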

How the data were processed

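U2AF2 eCLIP was measured in 2 biological replicates of HEL cells. The build GRCh38.p10 and the tools STAR 2.7.0f and cutadapt are named in the submitters' processing notes. The authors deposited raw counts per gene, with tallies of unassigned reads that were left out of library sizes. How reads were counted, with which strand setting and annotation, and whether duplicates were removed is not given in the sources used here. Remaining copies of 1 molecule would widen the true error beyond the counting error. In the deposited tallies, 97.3% of uniquely mapped reads in replicate 1 and 97.4% in replicate 2 were assigned to no feature. As the strand setting is not given, this tally may include reads over exons of genes on the other strand. All columns were used.

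Gene models came from GENCODE 29, matched by Ensembl identifier without version. That annotation may differ from the one behind the counts. Exons of all transcripts were merged per gene. Levels are counts over both libraries per kb of merged exons. CPM and the replicate test used TMM library sizes (trimmed mean of M values) from edgeR 4.0.16 under R 4.3.3, over genes reaching 10 counts in both libraries, with factors of 1.01 and 0.987, and DESeq2 1.42.0 gave alternative size factors. With 1 group, no quasi-likelihood test was possible, and classes of genes were described without a test. The exact binomial test of replicates used scipy 1.17.1 and a threshold of 0.05. It was tried on simulated data drawn with counting error alone, so that trial cannot show how the test behaves with wider error. Python 3.11.15, pandas 2.3.3, numpy 2.4.6 and matplotlib 3.10.9 were also used.

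Named genes were the 12 exon-touching and 10 intron-only genes with the most counts per kb, the 5 of each class with the most counts and the 5 longest without a count, genes called between replicates, the leading 5 and the lowest of each family list, and the outer genes with the most nested genes. Some genes this rule gave are not reported here. The nested genes, families and splits were chosen with earlier results of these data known. Alternatives changed the replicates, length, count minimum, exon definition, overlap and splice site window.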

Additional observations from a re-analysis of the deposited data

How the results depend on the processing

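In all settings in which each was computed, exon-touching genes kept a higher median level and a higher detected share than intron-only genes, and the difference between genes with and without an outer 3' splice site stayed positive. Sizes moved. The medians of exon-touching and intron-only genes, in counts per kb, were 6.30 and 1.26 per kb of span, 53.8 and 37.6 among detected genes (128 and 161 genes), 108 and 5.99 when at least 50% of the exon bases had to be outer exon (24 and 582 genes), 26.5 and 2.79 without any further overlapping gene, and 31.1 and 5.46 with exons of protein_coding transcripts. Leaving out one replicate gave 21.8 to 22.6 and 3.80 to 4.02. The shares with at least 10 counts, in the same order, were 66.7% and 46.9% with the 50% rule and 63.7% and 36.4% without a further overlapping gene, and 43.9% for intron-only genes with protein_coding transcripts. They were 74.1% and 54.3% at a minimum of 3 counts, where all protein-coding genes had 40.0%, and 37.3% and 17.3% at 50 counts, where they had 10.4%. Without one replicate they were 60.4 to 64.6% and 41.9 to 43.7%. A pair of settings was chosen after the data were seen. Without exons of another opposite-strand gene the medians were 17.7 and 3.18 and the intron-only share 37.2%. Without outer genes of clone-based symbol the medians were 20.0 and 3.46 and the intron-only share 38.1%. 

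The splice site difference of 8.76 was 1.49 per kb of span, 45.9 among detected genes, 50.2 with the 50% rule, 5.06 without a further overlapping gene, 18.5 with protein_coding transcripts, 6.41 with a window of 100 bases and 4.97 to 8.23 without one replicate. Nested genes above their outer gene were 75.6% of pairs per kb of span, 61.4% with protein_coding transcripts, 59.7% without clone-based symbols and 60.6 to 61.2% without one replicate. The replicate test called 71 genes in place of 45 when every gene with a count was tested, and 1 nested gene in place of 0 there (LRRTM1) and when both libraries had to reach 50 counts (LRRC4, adjusted exact p = 0.0478). DESeq2 size factors and unscaled totals called 0 nested genes, with 21 at an unadjusted p below 0.05 in each. The cause of these changes was not tested. Leaving out a replicate is not possible for the replicate test. No paired analysis was possible because there is 1 group.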
